A study of Mus musculus with 2 samples.

Results

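Enteroendocrine cells (EEC), the hormone-secreting cells of the gut lining, were examined in single-cell RNA profiles of jejunal crypts from 2 male mice with a whole-body knockout of miR-375 (375KO). The members are the cells that the deposited annotation assigns to the EEC cluster, 74 of the 3275 annotated cells. Replicate 1 gave 54 of its 2082 cells and replicate 2 gave 20 of its 1193. The mice were 12 months old, each gave 1 library, and both form a single group. The knockout was made with CRISPR/Cas9 and acts in every tissue, so it is not limited to the epithelium. The labels give the strain as C57BL6/2J. Wild-type libraries were not analysed here, and the values below describe 375KO cells without a comparison between genotypes. The other annotated classes are enterocytes, goblet cells, goblet progenitors, Paneth cells, secretory progenitors, stem cells, transit-amplifying (TA) cells, tuft cells and intraepithelial lymphocytes (IEL).

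EEC arise from crypt stem cells through secretory progenitors that switch on the transcription factor Neurog3, and they pass through a short endocrine progenitor state before they make hormone. Each mature cell packs peptide hormones or serotonin into dense-core granules and releases them when nutrients, bile or mechanical force act on its receptors and channels. Enterochromaffin cells, the serotonin-producing kind, carry Tph1, Tac1 and Lmx1a, and the peptide-producing kinds are usually named by their hormones, such as K cells for Gip, I cells for Cck, L cells for Gcg and X cells for Ghrl. miR-375 is known as a microRNA of endocrine cells in the pancreas and gut.

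The hairpin of the gene edited in these mice is shown as the locus of the knockout. RefSeq places the mouse Mir375 hairpin on the minus strand at chr1:74900658-74900721 of GRCm38.p6 (the mm10 build), near Fev, an endocrine transcription factor gene whose GENCODE M21 span is chr1:74881509-74885419. Mir375 is not among the rows of the count matrices, and the knockout could not be checked in these cells.
Mir375 hairpin: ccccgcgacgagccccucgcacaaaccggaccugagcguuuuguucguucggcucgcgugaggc

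Chgb, Gip, Cck and Sct were the hormone and granule genes among the 10 genes with the most UMIs in EEC, where a UMI (unique molecular identifier) stands for 1 captured RNA molecule. Their promoters are shown for that reason, as the 250 bases before and 50 bases after the RefSeq start in GRCm38.p6, written 5′ to 3′ on the gene's strand. Capitals mark 3 motifs searched on both strands, the cyclic AMP response element TGACGTCA and the E-boxes CAGATG and CAGCTG. Of 27025 mouse promoters of this length, 1.88% held TGACGTCA, 17.2% held CAGATG or its reverse and 16.1% held CAGCTG. The Chgb window at chr2:132781392-132781691 held TGACGTCA and CAGCTG. The Gip window at chr11:96024295-96024594 held CAGCTG. The Cck window, minus strand, at chr9:121495645-121495944 held CAGATG, and the Sct window, minus strand, at chr7:141279084-141279383 held both E-boxes. A match describes these letters and is not a measured site.
Chgb promoter: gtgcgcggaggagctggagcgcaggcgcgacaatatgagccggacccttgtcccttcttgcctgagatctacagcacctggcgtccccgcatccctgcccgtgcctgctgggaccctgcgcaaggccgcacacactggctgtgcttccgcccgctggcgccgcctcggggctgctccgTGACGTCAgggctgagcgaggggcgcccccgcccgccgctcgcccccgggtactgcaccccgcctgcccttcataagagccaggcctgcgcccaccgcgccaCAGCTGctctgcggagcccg
Gip promoter: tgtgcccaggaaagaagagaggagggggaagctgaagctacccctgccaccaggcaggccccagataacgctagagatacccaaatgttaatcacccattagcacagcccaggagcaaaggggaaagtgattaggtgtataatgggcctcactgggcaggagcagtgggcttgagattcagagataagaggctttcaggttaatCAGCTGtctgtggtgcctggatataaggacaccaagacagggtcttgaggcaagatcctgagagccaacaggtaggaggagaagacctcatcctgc
Cck promoter: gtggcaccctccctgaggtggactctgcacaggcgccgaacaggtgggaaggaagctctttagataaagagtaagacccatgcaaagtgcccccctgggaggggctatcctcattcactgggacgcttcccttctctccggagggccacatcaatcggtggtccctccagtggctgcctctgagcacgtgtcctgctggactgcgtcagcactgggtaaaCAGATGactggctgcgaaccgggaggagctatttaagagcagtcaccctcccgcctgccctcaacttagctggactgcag
Sct promoter: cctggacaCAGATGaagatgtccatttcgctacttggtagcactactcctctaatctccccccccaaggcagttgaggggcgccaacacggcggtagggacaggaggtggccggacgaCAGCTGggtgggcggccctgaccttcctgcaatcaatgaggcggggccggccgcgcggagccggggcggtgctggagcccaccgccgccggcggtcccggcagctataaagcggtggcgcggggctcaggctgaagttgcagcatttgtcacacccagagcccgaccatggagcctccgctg

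The libraries shared 0 barcodes, and the annotated cells carried 44017234 UMIs in replicate 1 and 22163354 in replicate 2. EEC held 620638 and 215413 of these. EEC made up 2.59% (exact binomial 95% interval 1.95 to 3.37) of annotated cells in replicate 1 and 1.68% (1.03 to 2.58) in replicate 2, with a mean of 2.14% ± 0.649 (SD, n = 2). The intervals overlapped. With at most 10 percent mitochondrial reads and at least 2000 genes required of each cell, the shares moved to 5.46% and 1.80%. Intervals cover counting error only. Every EEC had at least 2021 detected genes, above the minimum of 1500 that the authors set. The median EEC held 7399.5 UMIs in replicate 1 (4961 to 64750) and 9389.5 in replicate 2 (7866 to 21432), the lowest median among the 9 epithelial types in both mice. The median of the other epithelial cells was 16824.5 and 15411 UMIs. Genes per EEC (2704.5 and 2986.5) ranked 2 and 4 from the lowest among those types. The median mitochondrial share was 4.71% and 2.19%, second lowest after Paneth cells in both mice.

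The label was borne out by the markers fixed for it. Chga, Chgb, Neurod1, Tph1, Cpe and Scgn were all detected, and each was higher in both EEC sums than in the 16 other sums of 1 cell type and 1 mouse. The 6 genes together reached 15885 UMIs per 1000000 (CPM) in EEC of replicate 1 and 11401 in replicate 2, against 0.264 to 111 and 0.458 to 104 in the other epithelial types. At least 10 marker UMIs were found in 53 of 54 and 20 of 20 EEC. Because the authors clustered the cells on the same expression values, this describes the class and is no independent test.

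Markers of other cell types were present in EEC at lower level than in their own type. Goblet markers (6 of 6 detected in replicate 1, 4 of 6 in replicate 2) summed to 6033 and 2122 CPM, against 184477 and 164890 in goblet cells. At least 10 such UMIs were found in 20 and 5 EEC, and a single cell gave 37.3% of the goblet marker UMIs in replicate 1 and 61.3% in replicate 2. Tuft markers summed to 37.1 and 9.28 CPM against 6208 and 6555 in tuft cells, with Rgs13 at 0 in both mice. Paneth markers summed to 698 and 116 CPM against 513019 and 406387 in Paneth cells, and enterocyte markers to 1189 and 515 CPM against 26564 and 19136 in enterocytes. Stem cell markers (419 and 320 CPM), TA markers (508 and 474 CPM) and secretory progenitor markers (633 and 882 CPM) also stood below their own types, at 1190 and 619, 1942 and 1588, and 1998 and 2597 CPM. IEL markers stood at 3.22 CPM in replicate 1, with 5 of 6 genes at 0, and at 1258 CPM in replicate 2, where 3 cells carried at least 10 such UMIs. In all, 11 EEC (7 and 4) had over 20000 UMIs or at least 10 UMIs of IEL markers, tuft markers or Muc2, and several list counts are also given below without these cells. The authors had already removed the cells that their doublet caller marked.

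Each marker gene was carried by most EEC except Tph1. Chga (chr12:102554969-102565028, plus strand) and Chgb (chr2:132781278-132795079, plus strand) encode the granins that help form the granule core. Chga was detected in 85.2% of EEC of replicate 1 and 80% of replicate 2, and in 11.7% and 10.0% of the other epithelial cells. After each cell was thinned to 5000 UMIs the Chga shares were 77.4% and 70% of EEC and 4.21% and 4.85% of the others, with 1 EEC and 6 other cells of replicate 1 left out as too shallow. Chgb was found in 94.4% and 85% of EEC against 0.51% and 1.04% of the others. Neurod1 (chr2:79452521-79456751, minus strand), a transcription factor of maturing endocrine cells, was found in 92.6% and 90% of EEC against 0.71% and 0.95%. Tph1 (chr7:46644641-46672537, minus strand), the rate-limiting enzyme of gut serotonin synthesis, was found in 27.8% and 20% of EEC, against 0.05% and 0.26%. Levels in CPM come from UMIs at the 3′ ends of transcripts, which are not scaled by gene length.

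Gip led the hormones in both mice. Gip, the incretin of K cells (chr11:96024545-96030831, plus strand), gave 25474 UMIs, or 41045 CPM (exact Poisson 95% interval 40542 to 41552), in EEC of replicate 1 and 17791 UMIs, or 82590 CPM (81381 to 83813), in replicate 2. It took 5.17% of all EEC UMIs, more than any other gene. The highest other type held 345 CPM in replicate 1 (TA cells) and 259 CPM in replicate 2 (goblet progenitors), so EEC stood 119-fold and 319-fold above it. Gip was thus abundant in few cells, 17 of 54 and 8 of 20 EEC with any UMI. Of the 3133 other epithelial cells, 6 carried at least 10 Gip UMIs and 0.287% carried any.

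Cck, which drives gallbladder contraction and satiety (chr9:121489824-121495694, minus strand), came next with 12882 CPM in replicate 1 and 21619 CPM in replicate 2. The highest other type held 52.1 and 28.8 CPM, a difference of 247-fold and 751-fold. Sct, the bicarbonate-stimulating hormone secretin (chr7:141278330-141279133, minus strand), stood at 11132 and 7172 CPM. Sct was the most widely shared hormone, detected in 50 of 54 and 17 of 20 EEC. It was also the hormone detected in the largest share of the other epithelial cells. Goblet cells held 323 and 339 CPM, which left EEC 34.5-fold and 21.1-fold higher, and 28.6% of the other epithelial cells carried at least 1 Sct UMI. At 10 UMIs or more Sct was found in 82 of the 3133 other cells, 51 of them goblet cells.

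Gcg, the source of GLP-1 in L cells (chr2:62474530-62483650, minus strand), reached 4445 CPM in replicate 1 and 9712 CPM in replicate 2. Enterocytes of replicate 1 held 46.0 CPM, 96.7-fold lower, and in replicate 2 the highest other type held 3 UMIs. Ghrl, the gene of the hunger hormone ghrelin (chr6:113716119-113719880, minus strand), reached 2787 and 8899 CPM. Secretory progenitors of replicate 1 carried 313 CPM of Ghrl, 8.91-fold below EEC, and in replicate 2 no other epithelial cell had a Ghrl UMI. Few cells lay behind this, since 3 of the 3133 other epithelial cells carried at least 10 Ghrl UMIs, 2 of them enterocytes. Tac1, the precursor of substance P made by enterochromaffin cells (chr6:7554879-7565834, plus strand), was at 1660 and 2135 CPM, with 3.35 and 13.8 CPM in goblet progenitors as the next type. Ghrl and Gcg rested on few cells in replicate 2, where 1 cell gave 53.2% of the Ghrl UMIs and 1 cell gave 51.6% of the Gcg UMIs.

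The hormones of the distal gut and the rarer types were sparse. Nts (neurotensin) and Sst (somatostatin, the hormone of D cells) had 1337 and 1172 UMIs in replicate 1 and were listed at 0 in replicate 2. In replicate 1 a single cell gave 76.2% of the Nts UMIs and another gave 73.4% of the Sst UMIs. Pyy, the L-cell partner of Gcg, had 39 and 63 UMIs in 3 EEC of each mouse. Iapp had 29 and 10 UMIs. Nmu had 1 UMI in each mouse. Insl5, Gal, Vip, Penk, Npy, Uts2b and Npw were listed at 0 in every EEC. Outside the class, enterocytes held 21.6 CPM of Pyy and 24.5 CPM of Sst in replicate 1, and 45.6 CPM of Nts in replicate 2. For each of these, 1 of the 3133 other epithelial cells, an enterocyte, carried at least 10 UMIs.

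Of the 18 peptide hormone genes listed, 10 had enough counts to enter the fit of all types. Of these, 8 were higher in EEC than the mean of the other 8 epithelial types. In the fit, here and below, that mean was taken on the log scale with equal weight for each type. Many genes of this and the following lists were near 0 outside EEC and passed the count filter through EEC, so counts among tested genes describe the filter as well. Without the filter 10 of 15 hormones were higher, against 9.54% of all genes. Across all 11013 genes tested, 13.5% were called higher and 8.12% lower in that comparison (edgeR quasi-likelihood test, Benjamini-Hochberg adjusted p under 0.05). The hormones not past the threshold were Nts and Pyy. Sst passed although it had no UMI in EEC of replicate 2. The median log2 ratio of the hormone list, EEC to the mean level of the other types, was 9.70 in replicate 1 and 9.75 in replicate 2, and that over all genes tested was 0.30 and 0.20. Fitted fold changes of these genes are not given here. The reason is that 783 of the 1490 higher genes, the 8 hormones included, had 3 UMIs or fewer in at least 1 other type.

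**Figure D1:**
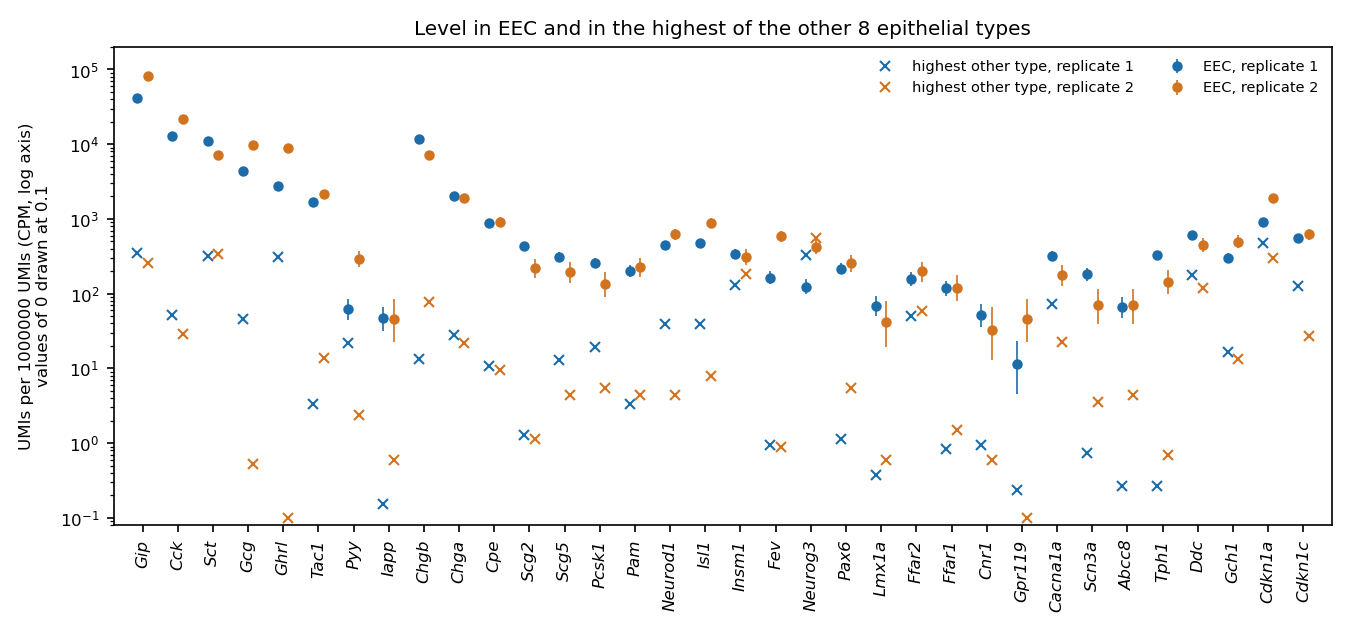
Level in EEC (dots, with exact Poisson 95% intervals) and in the highest of the other 8 epithelial types (crosses) for hormone, granule, transcription factor, receptor, channel, serotonin and cell-cycle inhibitor genes, in CPM on a log axis, for both mice. Gip stands highest at 41045 and 82590 CPM, and Neurog3 is the gene plotted whose crosses, at 330 and 558 CPM in secretory progenitors, lie above its dots.

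Hormones together took 7.81% of EEC UMIs in replicate 1 and 13.2% in replicate 2. The share varied widely between cells, from 0% to 46.4% in replicate 1 (median 3.18%) and from 0.028% to 48.1% in replicate 2 (median 8.11%). A cell was assigned to its leading hormone, the listed hormone with the most UMIs at 10 or more, and 68 of the 74 EEC had one (49 and 19). Tac1 led in 20 cells (15 and 5), Gip in 17 (12 and 5), Cck in 10 (5 and 5), Ghrl in 8 (5 and 3), Sct in 7 (7 and 0), and Gcg, Nts and Sst in 2 each. The remaining 6 cells had none (5 and 1).

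The weight of the leading hormone differed with its identity. In cells led by Gip it took a median of 21.3% of all UMIs and up to 47.4%. The median was 9.83% for Cck, 9.64% for Gcg, 3.68% for Ghrl and 2.71% for Sct. In cells led by Tac1 it was 0.499%, the lowest of the 8 hormones that led a cell, although these cells were the most frequent. Median UMI totals of these kinds lay close together, at 9239 for Gip, 9720.5 for Cck, 7671.5 for Ghrl, 8412 for Sct and 7531 for Tac1.

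Most EEC carried more than a single hormone. At least 2 hormones at 10 or more UMIs were found in 47 of 74 EEC (34 and 13), at least 3 in 27 (21 and 6), and exactly 1 in 21 (15 and 6). Cck, Gcg and Sct formed the closest set. Of the 12 Gcg cells, 11 also had Cck (39.3% of the 28 Cck cells) and 12 also had Sct. Of the 28 Cck cells, 27 had Sct, and of the 21 Gip cells, 20 had Sct. Cck was shared with 12 of the 21 Gip cells and 12 of the 18 Ghrl cells. Gcg was shared with 7 Ghrl cells and 3 Gip cells. The 3 cells with Pyy all had Cck, Gcg and Sct. Tac1 stood apart from the metabolic hormones, shared with Gcg in 0 cells, with Cck in 1 and with Gip in 2, while 10 of 23 Tac1 cells had Sct. Cells of 1 mouse share a library, so these counts describe the 74 cells and carry no test.

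**Figure D2:**
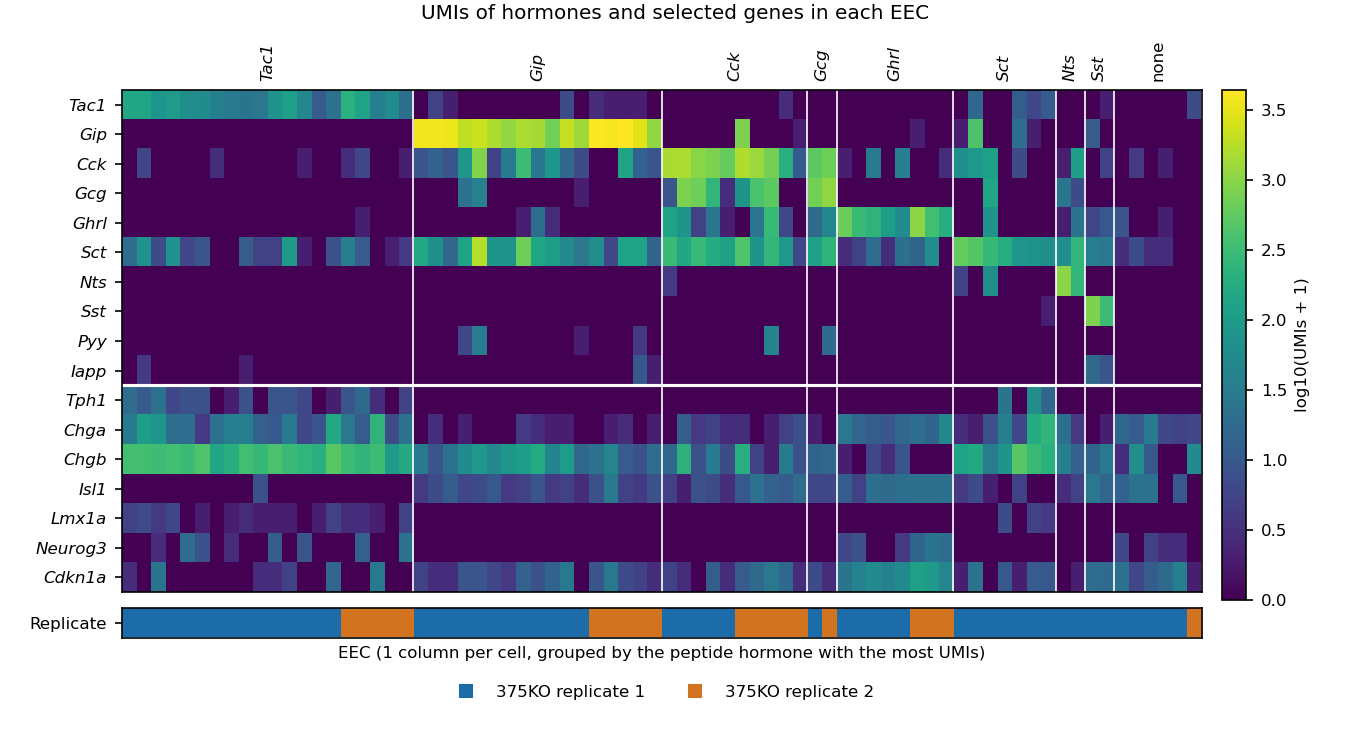
UMIs per cell, as log10(UMIs + 1), of 10 hormones and 7 other genes (rows) in the 74 EEC (columns), ordered by leading hormone, with the replicate in the lower strip. Tac1-led cells hold Tph1, Chgb and Lmx1a and almost no Isl1 (1 of 20 cells), Gip-led cells all hold Isl1 and no Tph1, and Sct runs through nearly every block.

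The machinery that makes and packs hormones was high in EEC. The list of granule genes held 17 members, and the 15 with enough counts were all higher than the mean of the other types (16 of 16 without the filter, and 10 of 15 with DESeq2, which called 13.8% of all genes higher). Of these, 13 stood above all 16 other sums, which 6.25% of the genes tested did. The median log2 ratio of the list was 8.08 and 7.66. Chgb reached 11918 and 7256 CPM against 13.4 and 77.4 CPM in goblet progenitors, and Chga reached 2009 and 1880 CPM. Scg2, a granin and the precursor of secretoneurin, had 429 and 218 CPM, and the highest other type had 1.29 and 1.12 CPM. The enzymes of hormone maturation were present together. The prohormone convertase Pcsk1 had 259 and 135 CPM, its inhibitor Pcsk1n 90.2 and 176 CPM, carboxypeptidase E (Cpe) 881 and 919 CPM, and the amidating enzyme Pam 200 and 227 CPM. Pcsk2, the other prohormone convertase of endocrine cells, had 0 UMIs in EEC of both mice. Ica1 was higher than the mean (log2 fold change 2.64, SE 0.35) without being the highest in replicate 1, where goblet cells had 52.6 CPM and EEC 46.7.

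Genes of regulated exocytosis followed, with 18 of 19 tested genes higher, of 20 listed (13 of 19 with DESeq2), and a median log2 ratio of 5.24 and 5.75. Snap25, a SNARE protein of the plasma membrane, had 48.3 and 55.7 CPM, and the highest other type held 4.34 and 0.19 CPM. Cplx2, a complexin that clamps the SNARE complex, had 140 and 195 CPM and was found in 38 and 17 cells. Several members were shared with other secretory cells. Rab3d, a small GTPase of secretory vesicles, was higher than the mean (log2 fold change 1.72, SE 0.22), and at 145 and 227 CPM lay close to goblet cells at 152 and 161 CPM. Vamp2, a vesicle SNARE, was higher than the mean (1.32, SE 0.29) and about level with tuft cells at 43.5 and 83.9 CPM. Rph3al, a Rab effector, was higher than the mean (3.69, SE 0.24) and above all other sums. Sytl4 had 1 UMI in EEC and 20.9 and 12.6 CPM in goblet cells and goblet progenitors, and did not pass the test.

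Serotonin synthesis was split between genes held by few EEC and genes held by nearly all. Tph1 had 327 CPM in replicate 1 and 144 CPM in replicate 2, carried by 15 and 4 cells. Ddc, the decarboxylase that makes serotonin and dopamine, was found in 52 of 54 and 19 of 20 EEC at 603 and 450 CPM, which was 3.42-fold and 3.73-fold above enterocytes. Gch1, the first enzyme of tetrahydrobiopterin synthesis, the cofactor of Tph1, was found in 50 and 19 EEC at 300 and 497 CPM, 18.2-fold and 37.4-fold above the next type. Qdpr, which recycles that cofactor, was higher (log2 fold change 1.34, SE 0.19), and Spr, an earlier step, was lower (-0.61, SE 0.20). In all, 4 of 9 listed genes were higher and 1 was lower (13.5% and 8.12% of all genes were). The serotonin transporter Slc6a4 (17.7 and 0 CPM) and the degrading enzyme Maoa (90.2 and 13.9 CPM) were most abundant in enterocytes, at 66.6 and 73.7 CPM and at 876 and 622 CPM, and neither passed the test. Maoa was called lower without the 11 EEC (log2 fold change -1.55) and without the count filter (-0.81), and the call of Spr was lost without the replicate block and with DESeq2. The vesicular transporter Slc18a1 (87.0 and 60.3 CPM) was found in 26 and 9 EEC, and Slc18a2 in 6 and 1.

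Of the transcription factors known in the endocrine lineage, 27 of 28 tested genes, of 29 listed, were higher in EEC (23 of 28 with DESeq2). In both mice 22 were highest in EEC, which 14.6% of all genes were. The median log2 ratio of the list was 4.43 and 4.96. Genes of the whole class included Neurod1 at 445 and 622 CPM, Insm1, a zinc finger factor of endocrine differentiation, at 343 and 311 CPM, and Nkx2-2 at 169 and 288 CPM. Isl1 (chr13:116298281-116309689, minus strand), a LIM homeobox factor, had 480 and 887 CPM, Pax6 216 and 255 CPM and Fev 164 and 585 CPM. No other type had more than 39.1 CPM of Isl1. Some members were instead shared with the rest of the epithelium. Sox4 was higher than the mean of the other types (1.68, SE 0.24) at 296 and 306 CPM, while secretory progenitors held 1055 and 1236 CPM. Tox3 (2.54, SE 0.20), Mlxipl (1.89, SE 0.38) and Onecut2 (1.05, SE 0.20) were detected in every type. Foxa3, most abundant in goblet cells, was the 1 tested gene not past the threshold, and Insm2 had no UMI.

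Neurog3, which commits secretory progenitors to the endocrine fate (chr10:62133090-62134763, plus strand), was at 124 CPM in replicate 1 and 427 CPM in replicate 2. Secretory progenitors carried 330 and 558 CPM, more than EEC in both mice, although that difference did not pass the test (log2 fold change -1.05, SE 0.41). In EEC the gene was confined to 18 cells (13 and 5). Of these, 9 also had Isl1 and 8 also had Tph1. By leading hormone they were 8 of 20 Tac1 cells, 6 of 8 Ghrl cells and 4 of 6 cells with no leading hormone, and none of the 17 Gip, 12 Cck or Gcg, or 7 Sct cells.

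Isl1 and Tph1 divided the class. Isl1 was found in 50 EEC and Tph1 in 19, and 0 cells had both, which left 5 cells with neither. Neither gene was used to assign the leading hormone. Lmx1a, a LIM homeobox factor known in enterochromaffin cells, followed Tph1, with 17 cells having both and 2 with each alone. Isl1 and Lmx1a were found together in 1 cell, with 49 cells having only Isl1 and 18 only Lmx1a. The division held in each mouse, with 36 Isl1 and 15 Tph1 cells of 54 in replicate 1 and 14 Isl1 and 4 Tph1 cells of 20 in replicate 2.

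By leading hormone, Tph1 was found in 16 of 20 Tac1 cells and 3 of 7 Sct cells, and in none of the Gip, Cck, Gcg or Ghrl cells. Lmx1a had the same counts, 16 and 3. Isl1 was found in 17 of 17 Gip cells, 12 of 12 Cck or Gcg cells, 8 of 8 Ghrl cells, 4 of 7 Sct cells and 1 of 20 Tac1 cells. Mnx1 was found in 10 of 20 Tac1 cells and in 2 Gip cells. Pax4 was also found in 10 Tac1 cells, against 1 Gip cell and 2 Cck or Gcg cells. Etv1 was found in 10 of 12 Cck or Gcg cells, 5 Gip cells and 1 Tac1 cell. Pdx1 was found in 6 Gip cells and in no Tac1 or Ghrl cell. Hhex, known in somatostatin cells, was found in 2 of 2 Sst cells, 2 of 6 cells with no leading hormone, 1 Tac1 cell and 1 Gip cell. Neurod1 (19, 15, 12, 7 and 7 cells of the Tac1, Gip, Cck or Gcg, Ghrl and Sct kinds) and Insm1 (18, 17, 10, 8 and 7) ran across all of them.

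**Figure D3:**
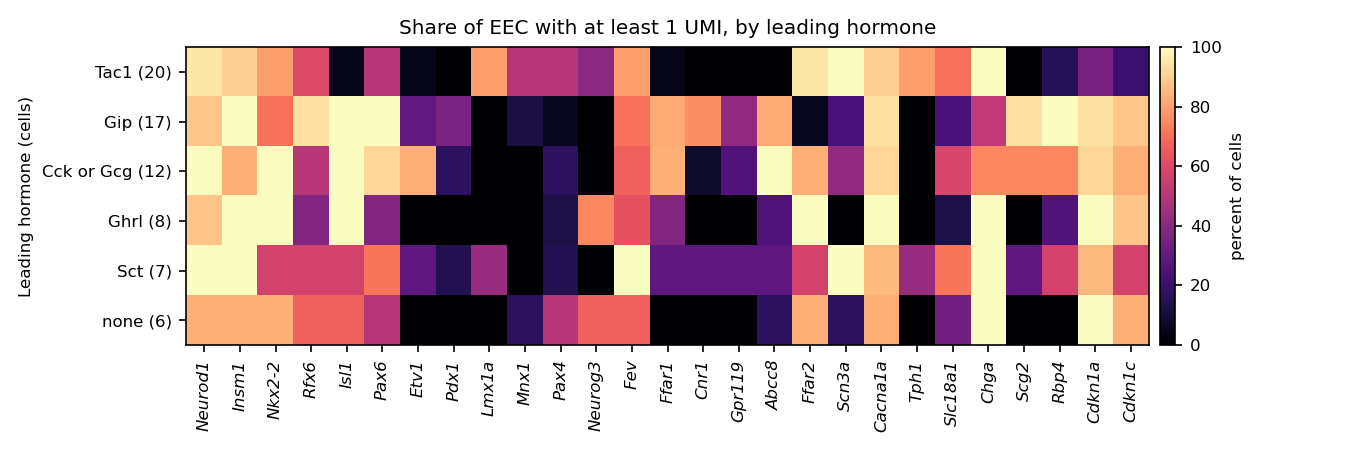
Percent of EEC with at least 1 UMI of each gene (columns), by leading hormone with the number of cells in parentheses (rows), both mice together. Isl1 is found in 17 of 17 Gip cells and 1 of 20 Tac1 cells, and Tph1 and Lmx1a are each found in 16 Tac1 cells and in no Gip, Cck or Gcg, or Ghrl cell.

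Receptors, transporters and channels for nutrients, hormones and other signals also varied with the leading hormone. Of 30 listed genes 15 had enough counts. Of these, 13 were higher in EEC than the mean of the other types (13.5% of all genes were). Without the filter 16 of 28 were, and with DESeq2 8 of 15, which lost Gpr119, Trpa1, Sstr1, Sstr5 and Galr1. The list had a median log2 ratio of 5.07 and 7.07. Ffar1, a receptor of long-chain fatty acids, had 118 and 121 CPM, 142-fold and 80.7-fold above the next type. It was found in 14 of 17 Gip cells, 10 of 12 Cck or Gcg cells, 3 of 8 Ghrl cells, 2 of 7 Sct cells, 2 of 2 Nts cells and 1 of 20 Tac1 cells. Ffar2, a receptor of short-chain fatty acids, had 158 and 200 CPM and was also seen in secretory progenitors, at 49.9 and 58.0 CPM. It was found in 19 of 20 Tac1 cells, 8 of 8 Ghrl cells, 10 of 12 Cck or Gcg cells, 4 of 7 Sct cells and 1 of 17 Gip cells. The cannabinoid receptor Cnr1 was found in 13 Gip cells, 1 Cck or Gcg cell and 2 of 7 Sct cells. Gpr119, a receptor of lipid amides, was found in 7 Gip, 3 Cck or Gcg and 2 of 7 Sct cells. Trpa1, an irritant-gated channel, was found in 5 Tac1, 3 Sct and 1 Cck or Gcg cells. The somatostatin receptor Sstr5 was found in 6 Gip, 6 Cck or Gcg and 2 Sct cells. It was also found in 1 Tac1 cell, 1 Nts cell and 1 cell with no leading hormone.

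Some transporters and receptors of the list were not particular to EEC. Slc5a1, the sodium-glucose transporter, was higher than the log-scale mean of the other types (1.27, SE 0.29) at 121 and 111 CPM. Enterocytes held 776 and 455 CPM, and a log-scale mean gives such a type less weight than a plain mean of CPM. Ffar4, a further fatty acid receptor, had 43.5 and 46.4 CPM against 51.3 and 51.9 CPM in goblet cells. Ffar3 had 22.6 and 37.1 CPM against 77.4 and 78.6 CPM in tuft cells. Adra2a and Ramp1 did not pass the test. Lpar5, Tas1r3, Gpr17, Piezo2, Glp1r, Htr4 and Nmbr had no UMI in any EEC.

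Of 16 listed genes of electrical excitability, 8 could be tested and these were higher in EEC (10 of 14 without the filter), with a median log2 ratio of 7.32 and 6.46. Cacna1a, a voltage-gated calcium channel, was found in 52 of 54 and 16 of 20 EEC at 319 and 176 CPM (log2 fold change 4.59, SE 0.28). Its auxiliary subunit gene Cacna2d1 had 145 and 130 CPM. The sodium channel Scn3a had 180 and 69.6 CPM and was found in 20 of 20 Tac1 cells, 7 of 7 Sct cells, 4 of 17 Gip cells and 0 of 8 Ghrl cells. Abcc8, a subunit of the ATP-sensitive potassium channel, had 66.1 and 69.6 CPM and was found in 14 Gip cells, 12 of 12 Cck or Gcg cells and no Tac1 cell. Kcnj11, the pore of the ATP-sensitive channel, had no UMI, and neither did Scn9a. Cacna1d was called although it had no UMI in EEC of replicate 2.

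Granins varied with the leading hormone too. Scg2 was found in 16 of 17 Gip and 9 of 12 Cck or Gcg cells and in no Tac1 or Ghrl cell. Rbp4, the retinol carrier, was found in 17 of 17 Gip, 9 of 12 Cck or Gcg, 4 of 7 Sct and 3 of 20 Tac1 cells. Chga was found in 20 of 20 Tac1 cells with 577 and 302 UMIs in the mice, and in 9 of 17 Gip cells with 10 and 4 UMIs. Chgb was found in 20 Tac1 and 17 Gip cells, and Tac1 cells held 4731 and 1153 of its 7397 and 1563 UMIs. Slc18a1 was found in 14 of 20 Tac1 cells, 5 of 7 Sct cells, 7 of 12 Cck or Gcg cells, 4 of 17 Gip cells and 1 of 8 Ghrl cells.

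Cell-cycle inhibitors were high in EEC. Cdkn1a (p21) had 910 CPM in replicate 1 and 1894 CPM in replicate 2 and was higher than the mean of the other types (3.41, SE 0.32). Tuft cells came next at 472 and 302 CPM. Cdkn1c (p57) had 549 and 622 CPM, with secretory progenitors at 128 and 26.8 CPM, and Cdkn1b (p27) was higher as well (1.06, SE 0.24). Cdkn1a was found in 7 of 20 Tac1 cells, 16 of 17 Gip cells, 11 of 12 Cck or Gcg cells and 8 of 8 Ghrl cells, and the 8 Ghrl cells held 212 and 255 of the 565 and 408 UMIs. Of the 19 cell-cycle genes listed, 3 were higher and 1 was lower (13.5% and 8.12% of all genes were). The lower one was the chromatin protein gene Hmgb2 (-0.93, SE 0.23), whose call was lost without the replicate block.

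The proliferation gene Mki67 had 53.2 and 23.2 CPM against 327 and 199 CPM in TA cells, was found in 5 and 3 EEC, and did not pass the test. A single cell gave 54.5% and 60% of its UMIs. Without the 11 EEC of high UMI number or mixed markers, 9 of the 19 genes were lower (11.2% of all genes were), among them Mcm3, Mcm6, Ccnb1, Ccna2, Cdk1, Birc5, Tyms and Ccnd1.

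By Notch signalling secretory cells keep their neighbours absorptive, and 11 of its genes were tested. Of these, 2 were higher and 1 was lower (13.5% and 8.12% of all genes were), with a median log2 ratio of -0.57 and 0.04. Without the 11 EEC of high UMI number or mixed markers 3 were lower (11.2% of all genes were), Dll1 (-2.11) among them. The median over both mice was then -1.42. No tested gene of the lists lay below all other sums, and 1.99% of the genes tested did. The Notch ligand Dll4 was higher (1.73, SE 0.41) and the Notch target Hes1 was lower (-1.40, SE 0.41), at 16.1 and 23.2 CPM against 108 and 121 CPM in stem cells. The call of Hes1 was lost without the replicate block and in thinned cells, and that of Mfng, the other gene called higher, without the block and with DESeq2. Genes known from neurons were high in EEC. Of 18 listed genes 9 could be tested, and these were higher (11 of 16 without the filter, and 6 of 9 with DESeq2), with a median log2 ratio of 5.58 and 6.87. Map1b, a microtubule-binding protein, had 285 and 162 CPM in 48 and 16 EEC. Celf3, an RNA-binding protein, had 129 and 162 CPM, and Gng4, a G protein subunit, had 75.7 and 130 CPM. Sox10 and S100b, markers of enteric glia, had no UMI in EEC of either mouse.

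**Figure D4:**
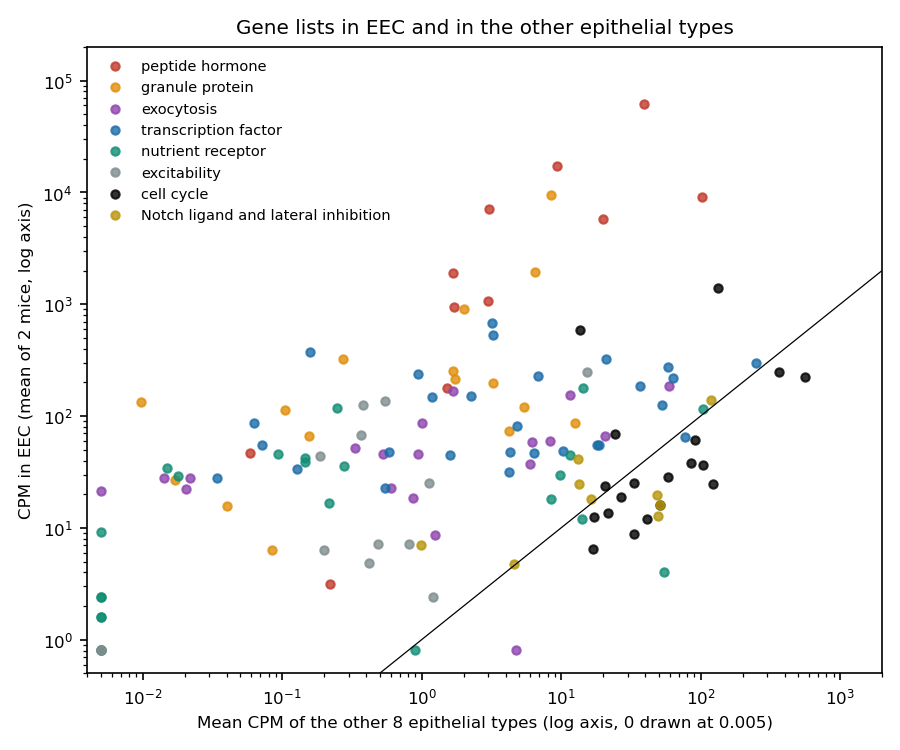
Mean CPM of the 2 mice in EEC (vertical) against the mean CPM of the other 8 epithelial types (horizontal), both on log axes, for genes of 8 lists, with the line of equal level. Granule genes, the hormones with UMIs in EEC and the transcription factors except Foxa3 lie above the line, while Mki67 and most other cell-cycle genes and the Notch target Hes1 lie below it and Cdkn1a and Cdkn1c above.

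Over all genes, 2384 of 11013 differed between EEC and the mean of the other types (1490 higher and 894 lower, 21.6% in all). Without the mouse as a replicate block the number was 1411 (1125 and 286). Without Paneth cells, in which few genes take most UMIs, it was 2753, of which 55.3% were higher in EEC against 62.5% with them. Since the classes come from the same cells' expression, these numbers describe how far EEC stand apart. The largest fold changes among genes highest in EEC in both mice were those of Gip, Gcg, Ghrl, Cck and Chgb, followed by Tph1, Fev, Vim, Scg2 and Tac1. Genes outside the lists came among the first 30 too. Vim, an intermediate filament of mesenchymal and some neuroendocrine cells, had 596 and 576 CPM in 21 and 7 EEC, with at most 3.60 CPM elsewhere. Scgn, a calcium sensor of endocrine cells, had 305 and 580 CPM. Gpx3, a secreted glutathione peroxidase, had 121 and 390 CPM. Nefm, a neurofilament gene, had 135 and 116 CPM, with 67.3 CPM in secretory progenitors of replicate 1. Pla2g2d, Adgrg4, Tmigd3 and Smarca1 had at most 62.8 CPM in EEC and at most 3 UMIs in any other type. Igfbp2 and Ucn3 also entered, but 1 cell of replicate 2 gave 100% and 92.3% of their UMIs there. With DESeq2, Tph1, Gpx3, Nefm, Adgrg4, Tmigd3, Smarca1, Igfbp2 and Ucn3 lost their calls, and so did others of the first 30.

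The genes called lower with the lowest fold changes had no UMI in EEC. They were Anxa13, Fam57a, Spc25, Bckdhb, Tfb1m, Lrrc66, 4930523C07Rik, Cdan1, Runx1 and Shpk. Apart from Bckdhb and Lrrc66, each lost its call under at least 1 alternative, and Spc25, Tfb1m, 4930523C07Rik, Cdan1, Runx1 and Shpk lost it without the 11 EEC. Anxa13 had 32.0 and 8.94 CPM in the highest other type and Runx1 123 and 64.3 CPM in tuft cells. The genes with the most UMIs in EEC were Gip, Cck, mt-Atp6, mt-Co3, Chgb, mt-Co1, Sct, mt-Co2, Malat1 and Eef1a1, and the 10 most abundant genes of each sum took 14.1% and 17.1% of UMIs. Malat1, a nuclear noncoding RNA, was at 7852 and 10180 CPM, higher than the mean of the other types (1.33, SE 0.13) and second to tuft cells at 12006 and 14735 CPM.

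Tuft cells are the other rare chemosensory type of this epithelium. Between EEC and tuft cells 1626 genes differed (888 higher in EEC, 8.06% of genes, and 738 lower, 6.7%, for 14.8% in all), and 849 did without the replicate block. All 15 tested granule genes, 25 of 28 transcription factors, 14 of 19 exocytosis genes and 12 of 15 receptors were higher in EEC. So were 5 of 10 hormones, and the other 5 did not pass the test. Ffar3 was lower. Among genes past the threshold, the largest differences toward EEC included Cck, Chgb, Tac1, Rbp4, Isl1, Vim, Neurod1, Scgn and Fev. Gip is not in this ranking, although it had 0 CPM in tuft cells of both mice and 41045 and 82590 CPM in EEC. Toward tuft cells the largest differences were of genes without any UMI in EEC. Rgs13, a regulator of G protein signalling, led them at 2375 and 2697 CPM in tuft cells. Hmx2 and Spib, transcription factors found in tuft cells, had 235 and 350 CPM and 251 and 346 CPM there, and Ptgs1, the prostaglandin synthase, 123 and 139 CPM. All 6 tuft markers were called lower in EEC.

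Secretory progenitors precede the endocrine lineage. Against them 1034 genes differed (590 higher in EEC, 5.36%, and 444 lower, 4.03%, for 9.39% in all). The number was 254 (198 and 56) without the replicate block, which moved the share of higher calls from 57.1% to 78.0%, and 1667 without the 11 EEC named above. The 31 and 19 secretory progenitors gave sums of 460472 and 224086 UMIs. Granule genes were again higher in EEC (14 of 15), as were 15 of 19 exocytosis genes, 9 of 15 receptors and 4 of 10 hormones. The other 6 hormones did not pass the test. Of the transcription factors 14 of 28 were higher and 2 were lower, Sox4 (-2.09, SE 0.30) and Foxa3. Neurog3, Neurod2, Pax4 and Isl1 did not pass. Of the 11 Notch genes 4 were lower and none was higher. Dll1 was at 32.2 and 0 CPM in EEC against 180 and 196 CPM, Hes6 at 132 and 144 CPM against 241 and 424 CPM, and Atoh1, the secretory fate factor, at 25.8 and 0 CPM. Hes1 was lower as well.

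EEC of the mice were compared without a test, since each mouse gave 1 library and replicate 2 only 20 EEC. Of 1744 genes with at least 100 CPM in EEC of either mouse, 302 (17.3%) differed by at least 2-fold with counting intervals apart, 178 higher in replicate 1 and 124 in replicate 2. Of the 302, 119 also differed 2-fold in the same direction in the pooled other epithelial cells. Several hormones were higher in replicate 2, Gip by 2.01-fold, Gcg by 2.18-fold, Ghrl by 3.19-fold and Pyy by 4.65-fold, and so were Neurog3 (3.44-fold), Fev (3.56-fold) and Cdkn1a (2.08-fold). Tph1 was 2.27-fold higher in replicate 1. Chga (1.07-fold), Tac1 (1.29-fold), Sct (1.55-fold), Chgb (1.64-fold) and Cck (1.68-fold) stayed within 2-fold. A single cell gave 58.5% of the Chga and 46.1% of the Tac1 UMIs of replicate 2.

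The largest differences between the mice rested on few cells or on markers of other types. Higher in replicate 1 were Agr2, a goblet gene, at 2232 CPM in 18 EEC against 0, Nts, Sst, Afp (90.4% from 1 cell) and Spink4, a goblet gene, at 1163 against 23.2 CPM. Agr2 was also at exactly 0 in enterocytes, stem cells and TA cells of replicate 2, against 2.38, 50.5 and 96.6 CPM in replicate 1, while goblet cells held 31527 and 26860 CPM. The part of the free-RNA correction in such zeros was not tested, and no fold is given against them. Higher in replicate 2 were the lymphocyte genes Ccl5 at 845 CPM against 0 (53.3% from 1 cell) and Gzma at 227 CPM against 0, Nupr1 (98.3% from 1 cell), Bglap3 (all from 1 cell) and Rps18. Rps18, a ribosomal protein gene with near-identical copies, was at 62.8 and 3862 CPM in EEC and at 68.6 and 4791 CPM in the other epithelial cells. The difference in Rps18 was thus not limited to EEC. Whether the goblet and lymphocyte RNA in these sums bears on other genes was not tested.

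**Figure D5:**
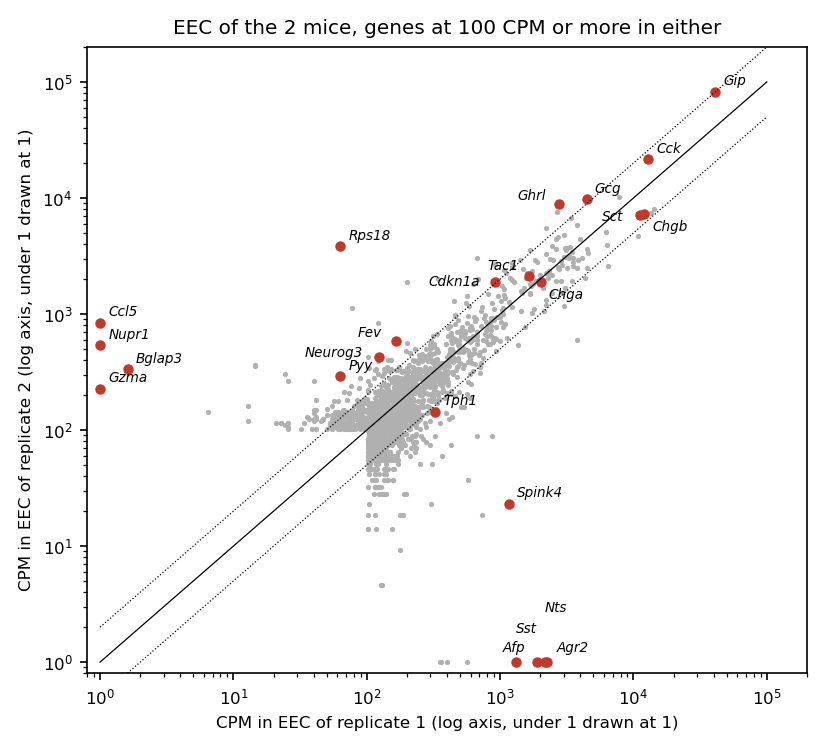
CPM in EEC of replicate 2 (vertical) against replicate 1 (horizontal), log axes, for the 1744 genes at 100 CPM or more in either mouse, with lines of equal level and of 2-fold difference. Gip, Gcg and Ghrl lie on or above the upper 2-fold line, Tph1 lies below the lower one, and Agr2, Nts, Sst and Afp lie at 0 in replicate 2.

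Candidate targets of miR-375, a list of 119 genes taken from the study's human organoid work and matched by symbol, were mostly not called. Of 96 tested genes, 12 were higher in EEC than the mean of the other types (13.5% of all genes were) and 1 was lower (8.12% of all genes were), with a median log2 ratio of 0.52 and 0.38. The counts moved with the fit, to 5 higher without the replicate block (10.2% of all genes, with 2.6% lower), to 16 higher and 5 lower without the 11 EEC (15.7% and 11.2%), and to 6 lower without Paneth sums (11.4%). Without the count filter 8 of 111 were higher (9.54% of all genes were) and 2 lower (1119 of all 17626 genes were). Among the 38 with a conserved site, 6 were higher, Abi2, Eif4g3, Chd7, Med13, Ube3a and Matr3, and Ybx1 was lower (-0.70, SE 0.13). The others were Clock, Ireb2, Arrdc3, Jarid2, Irs1 and Rlf. Clock, a circadian transcription factor, had 88.6 and 83.6 CPM and was above all other sums. Zfp36l2, an RNA-binding protein that destabilises messenger RNA, was at 111 and 130 CPM in 20 and 8 EEC, at rank 4 of the 9 epithelial types in both mice, and did not differ past the threshold (log2 fold change 0.01, SE 0.21). Stem cells held the most, 246 and 210 CPM. Its relative Zfp36 was highest in EEC in both mice, at 179 and 135 CPM (1.79, SE 0.30).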

How the data were processed

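Crypts of the jejunum were dissociated with dispase and libraries were prepared with the 10x Genomics 3′ v2 kit. Per the labels, the authors aligned reads to mm10 with Cell Ranger 3.0.1 and worked in Seurat 3.2.1, while the study's methods name a later Seurat release. They deposited UMI counts per gene and barcode for each library. SoupX was used by the authors against free RNA, on matrices that are not named. They kept cells with at least 1500 genes and at most 25 percent mitochondrial reads, a percent they deposited with the cluster names. The doublet score they deposited from scDblFinder is a fraction from 0 to 1, used here only as a description. Corrected counts from sctransform were not used. A further 2937 cell columns per table, of samples of another series, were not used.

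Counts were added up within each mouse and annotated type (18 sums of 9 epithelial types, IEL left out). Genes passed filterByExpr, libraries were scaled by TMM, and the fit used edgeR 4.0.16 (glmQLFit, robust, glmQLFTest) with type and mouse as terms, which left 8 residual degrees of freedom. The mouse is the block because the same animal gave every type. The residual degrees of freedom rest on 2 mice and on a spread shared between types. Tests were two-sided. EEC were set against the mean of the other 8 types (on the log scale, each with equal weight), tuft cells and secretory progenitors. The scripts were tested on simulated data with known fold changes. The SE of a log2 fold change was computed as the fold change divided by the root of F. Fold changes against the mean of the other types are given only for genes with over 3 UMIs in every other type. Exceptions are values under alternatives in the closing section, such as those of Sst, Cacna1d and Atoh1. CPM was the count over the sum's total. The log2 ratio of a list was instead taken per mouse against the plain mean CPM of the other types. A gene at 0 in those types was set to 3 counts there. Shares carry exact Clopper-Pearson and counts exact Poisson 95% intervals, which cover counting error only. Promoters and the hairpin were taken from RefSeq (GRCm38.p6) and gene spans from GENCODE M21, counted from 1.

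The members and the gene lists were chosen with earlier results of these data known. Named were list genes, the 30 largest fold changes among genes highest in EEC, the 10 lowest, the 10 with most UMIs, the 10 each way against tuft cells, and the 5 each way between the mice. Single genes named for 1 cell or for the 11 EEC left out were chosen after their values were seen. A few genes are not reported here. Alternatives were RLE factors, DESeq2 1.42.0, no filter on low counts, no replicate block, cells thinned to 5000 UMIs, a stricter cell filter (at most 10 percent mitochondrial reads and at least 2000 genes), Paneth sums left out, each replicate left out and, added after seeing the data, the 11 EEC left out.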

Additional observations from a re-analysis of the deposited data

How the results depend on the processing

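The number of genes that differed fell without the replicate block, to 1411 against the other types, 849 against tuft cells and 254 against secretory progenitors, and rose to 1667 against secretory progenitors without the 11 EEC of high UMI number or mixed markers. The block rests on shared animals. The EEC share was 3.63% under the stricter cell filter (5.46% and 1.80%), 1.68% to 2.59% with a replicate left out, and 2.18% of epithelial cells. The causes were not tested. Leaving out a replicate leaves the 3 comparisons no residual degrees of freedom, so it gave values without calls.

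Of 166 named genes tested, 102 kept direction and call under every alternative run. With 1 replicate left out, values ran from -0.78 to 10.41 for Sst and from -0.83 to 3.59 for Cacna1d, both negative without replicate 1. Directions also turned for Adra2a (-6.08) in thinned cells and for Atoh1 (-8.30) without the 11 EEC. These are fitted values of genes with few UMIs in some types. Sst and Cacna1d have no UMI in EEC of replicate 2. DESeq2 lost 40 calls and gained 2. With 20 EEC in replicate 2, genes under about 14 CPM there rest on 3 UMIs or fewer.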
